A study of Mus musculus with 1203 samples.

Results

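Tuft cells are rare chemosensory cells of the gut lining, and the cells described here are single mouse colonic tuft cells that make up 38.8% of the 1203 wells in the series. They were chosen from the wells labelled tuft by their own expression. A cell was taken when it had at least 1000 genes above 0 TPM, Trpm5 at 50 TPM or more and Dclk1 at 100 TPM or more. TPM is a length-normalised measure of each gene's share of a cell's transcripts, scaled to the same total of 1000000 in every cell. Of 1083 tuft-labelled wells, 766 held enough genes, and 61% of these passed both marker thresholds. Of the chosen cells, 39.8% carried the genotype label VillinCre;IPMKf/f, called knockout-labelled here, and 60.2% the label wt. All came from colons of 11-week-old female mice. In knockout-labelled mice a Villin promoter drives Cre recombinase in the intestinal epithelium, where it deletes floxed Ipmk alleles. Loss of the gene would therefore not be limited to tuft cells, and which exons are floxed is not stated in the labels.

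The comparison asks how loss of Ipmk in the epithelium affects colonic tuft cells. Cells stained for EPCAM and SIGLEC-F were sorted 1 per well and profiled by Smart-seq2, a plate method that copies full-length polyadenylated RNA. The wells form 7 plate sets. Sets 2, 4, 5 and 7 held knockout-labelled cells and sets 1, 3 and 6 held wt cells, so plate set and genotype cannot be told apart. No label names an animal. Each genotype was therefore treated as 1 sample and no test was run. Each SD below is the spread between plate sets (n = 4 knockout-labelled and n = 3 wt), which may be technical.

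Ipmk encodes inositol polyphosphate multikinase, which phosphorylates soluble inositol phosphates and also has phosphoinositide kinase activity. Tuft cells sense luminal signals through a taste-like cascade that opens the cation channel TRPM5, and they release acetylcholine, eicosanoids and the cytokine IL-25. Type I and type III interferons signal through JAK kinases to a transcription factor complex that includes IRF9 and switches on antiviral effector genes, and the transcription factor IRF7 amplifies that response.

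The knockout-labelled sets gave 53, 69, 55 and 9 chosen cells, against 56 and 69 in wt sets 1 and 3, while wt set 6 gave the other 55.5% of the wt cells. Set 7, with 9 cells from 1 plate, stood apart in size. Chosen cells were 58% ± 13.8 of tuft-labelled wells with enough genes in knockout-labelled sets and 62.2% ± 4.37 in wt sets. TPM keeps no read depth, so genes detected per cell stand in for it. The medians were 2828, 2437, 2213 and 2147 genes in the knockout-labelled sets and 2849 and 2699 genes in wt sets 3 and 6, with 2677.5 in wt set 1. The sets overlapped, with a difference of -335.6 genes between their averages. The 18S ribosomal RNA entry took 77.5% to 80.3% of TPM in knockout-labelled sets and 76.5% to 79.5% in wt sets.

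The tuft label was checked against genes that did not choose the cells. Of 12 other tuft markers, the cells had a median of 10 above 0 TPM, and none had fewer than 5. Sh2d6 was found in 99.6% of them, the actin-binding protein gene Avil in 99.1% and Pou2f3, the transcription factor that specifies tuft cells, in 81.8%. In the tuft-labelled cells that failed a threshold, Sh2d6 was found in 34.4%, Avil in 32.8% and Pou2f3 in 17.1%. The genes used for the choice are given as a description. Trpm5 averaged 264.7 ± 37.9 TPM in knockout-labelled sets and 246.3 ± 46.3 TPM in wt sets. Dclk1, a tuft cell kinase, averaged 533.6 ± 84.1 TPM in knockout-labelled sets and 555.6 ± 136.3 TPM in wt sets. The lowest Trpm5 value inside the threshold was 52.49 TPM and the highest outside was 49.79 TPM, and for Dclk1 these were 101.48 and 95.63 TPM. Of the excluded cells, 79.9% failed both thresholds, 49 cells failed Dclk1 only and 11 failed Trpm5 only.

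The targeted gene did not separate the genotypes in the chosen cells. Ipmk (ENSMUSG00000060733, chr10:71347763-71433327, plus strand, GRCm38) averaged 4.84, 12.7, 2.17 and 1.297 TPM in the knockout-labelled sets, against 2.23, 1.68 and 1.77 TPM in the wt sets. The ranges overlapped, and knockout-labelled set 4 was highest. The log2 difference was 0.77, and 0.23 when the highest cell of each set was left out. In tuft-labelled cells that failed a threshold, Ipmk averaged 18.3 ± 8.77 TPM in knockout-labelled sets and 6.45 ± 2.07 TPM in wt sets. There every knockout-labelled set lay above every wt set, while in wells labelled epithelial the sets overlapped. Ipmk was above 0 TPM in 17.2% of knockout-labelled cells (12.1% to 23.4%) and 20.3% of wt cells (15.7% to 25.5%), with exact 95% Clopper-Pearson intervals. These intervals, like those below, cover counting error only. A TPM over the whole gene cannot show the loss of single exons. The genotype therefore rests on the labels alone, and every direction below is between cells labelled VillinCre;IPMKf/f and cells labelled wt.

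Many interferon-pathway genes were called higher in knockout-labelled cells, in their mean or in the share of cells that had them. A gene was called by mean if it averaged 10 TPM or more in a genotype, its log2(mean TPM + 1) differed by at least 1.5-fold, and no plate-set means overlapped. That rule called 42 genes higher (1.82% of 2309) and 57 lower (2.47%). A gene was called by share if its share of cells above 0 TPM, averaged over plate sets with equal weight, differed by at least 15 percentage points. The plate sets could not overlap, and the average share had to be 10% or more in a genotype. That rule called 23 genes higher (0.275% of 8366) and 78 lower (0.932%). Of the 42 called higher by mean, 14 belonged to the lists of interferon regulators, interferon-induced effectors and MHC class I genes, in which 7, 13 and 9 members averaged 10 TPM or more. Of the 23 called by share, 14 belonged to these lists, in which 16, 30 and 17 members could be called. None of the members of these lists was called lower. The lists and rules were chosen with earlier results of these data known, so counts in them, here and below, are a description and not independent support. Both rules called the same 12 genes higher and the same 5 lower. The median log2 difference of all genes at 10 TPM or more was -0.19. Of all 9562 genes at 1 TPM or more in a genotype, 35.6% had a positive difference, 1.91% had every knockout-labelled set above every wt set and 4.12% had every knockout-labelled set below.

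Among regulators, Irf7 (ENSMUSG00000025498, chr7:141262706-141266481, minus strand) averaged 106.3, 83.4, 92.5 and 265.7 TPM in the knockout-labelled sets, against 14, 29.5 and 29.9 TPM in the wt sets. Every knockout-labelled set lay above every wt set, and set 7, with 9 cells, was the highest. The log2 difference was 2.34, with an SD of 0.70 between sets, and 1.97 without set 7. More cells also had the transcript, 81.2% of knockout-labelled cells (74.8% to 86.5%) and 56.2% of wt cells (50.2% to 62.1%). In the cells that had it, the median was 49.7 TPM in knockout-labelled cells and 23.8 TPM in wt cells.

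Zbp1, a sensor of Z-form nucleic acids, was above 0 TPM in 19.4% of knockout-labelled cells and 4.27% of wt cells and averaged 7.14 ± 3.03 TPM in knockout-labelled sets and 1.14 ± 0.40 TPM in wt sets. Irf9, which encodes a DNA-binding part of that complex, averaged 9.73 ± 3.96 TPM in knockout-labelled sets and 3.85 ± 2.67 TPM in wt sets, under the level of the mean rule. Of 22 listed symbols of regulators and sensors, 19 had an entry and 16 reached 1 TPM. Of these, 11 had a positive difference, beside 35.6% of all genes, and 5 had non-overlapping sets, all higher, beside 1.91% of all genes. Their median log2 difference was 0.50, beside -0.17 for all 9562 genes at that level.

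The oligoadenylate synthetases sense double-stranded RNA and make the activator of RNase L. Oas2 (chr5:120730333-120749853, minus strand) averaged 18, 25.5, 23 and 34.1 TPM in the knockout-labelled sets, against 1.37, 5.17 and 5.11 TPM in the wt sets. Every knockout-labelled set lay above every wt set, and so did every plate. Oas2 had the largest difference in share of all genes compared, at 82.3% of knockout-labelled cells (76% to 87.5%) and 40.6% of wt cells (34.8% to 46.6%), or 49.3 points between the averages of plate sets. By plate set it was found in 84.9%, 85.5%, 72.7% and 100% of cells in the knockout-labelled sets and 21.4%, 40.6% and 47.4% in the wt sets.

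Oasl2 (chr5:114896936-114912234, plus strand), a related protein, averaged 25.7, 22.5, 27.2 and 20.4 TPM in the knockout-labelled sets, against 7.29, 7.39 and 6.72 TPM in the wt sets. The sets of each genotype lay close together, and the log2 difference of 1.61 had an SD of 0.14. Oas3 was found in 36.6% of knockout-labelled cells and 8.19% of wt cells. Oas1g averaged 24.7 ± 5.73 TPM in knockout-labelled sets and 7.54 ± 1.90 TPM in wt sets. Oas1a averaged 19.3 ± 7.17 TPM in knockout-labelled sets and 7.23 ± 1.08 TPM in wt sets. These 2 genes are near-identical copies, so the split of reads between them is uncertain. Oasl1 was called by neither rule, at 11.3 ± 3.23 TPM in knockout-labelled sets and 8.63 ± 2.05 TPM in wt sets.

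**Figure D1:**
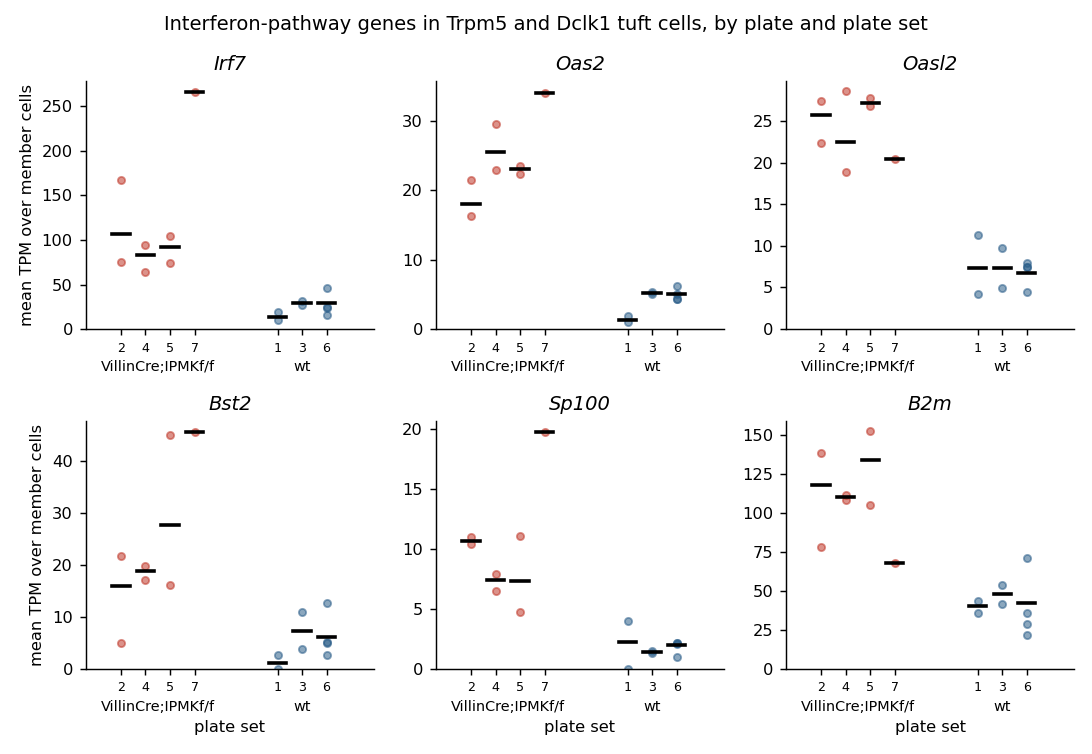
Mean TPM of interferon-pathway genes in the chosen tuft cells, with plates as points and plate-set means as bars, VillinCre;IPMKf/f sets left and wt sets right on linear axes from 0. For Irf7, Oas2, Oasl2 and Sp100 every VillinCre;IPMKf/f plate lies above every wt plate.

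Bst2 (chr8:71534255-71537456, minus strand), also called tetherin, holds budding virions at the cell surface. It averaged 15.9, 18.8, 27.7 and 45.4 TPM in the knockout-labelled sets, against 1.12, 7.21 and 6.04 TPM in the wt sets. Its sets did not overlap, at a log2 difference of 2.38, but single plates did. It depended on the cells counted. Without the 40.9% of cells whose absorptive colonocyte markers summed to 100 TPM or more the difference was 0.47, and 2.19 with Ceacam1 left out of that sum. Sp100, a nuclear body protein, averaged 11.3 ± 5.86 TPM in knockout-labelled sets and 1.87 ± 0.44 TPM in wt sets. Ifi27l2b was found in 81.2% of knockout-labelled cells and 55.9% of wt cells, and averaged 112.3 ± 37.8 TPM in knockout-labelled sets and 39 ± 5.41 TPM in wt sets. Its close copy Ifi27l2a had a log2 difference of 3.18, carried by 12.9% of knockout-labelled cells and 3.20% of wt cells, with 51.7% of the wt total in 1 cell. That difference was 0.78 when log2 values were averaged over cells. None of the 56 cells of wt set 1 had it, which allows a share of up to 5.36%, and reads may be split between the copies. Lgals3bp, a secreted glycoprotein, averaged 86.6 ± 21.1 TPM in knockout-labelled sets and 39.7 ± 5.38 TPM in wt sets.

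Of 42 interferon-induced effectors listed, 33 reached 1 TPM. Of these, 30 had a positive difference and 18 had sets that did not overlap, all higher, beside 35.6% and 1.91% of all genes. The mean rule called 9 of the 13 at 10 TPM or more, beside 1.82% of all genes. By share 10 of 30 were called, beside 0.275% of all genes, including Oas3, the helicase gene Helz2, Xaf1 and Rtp4. The median log2 difference was 1.08, with an SD of 0.24 between sets. Summed, the effectors held 482.2 to 598.6 TPM in knockout-labelled sets and 200.2 to 223.5 TPM in wt sets. Not all were called: Ifi35 averaged 16.8 ± 4.22 TPM in knockout-labelled sets and 15.7 ± 5.77 TPM in wt sets, and met neither rule.

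**Figure D2:**
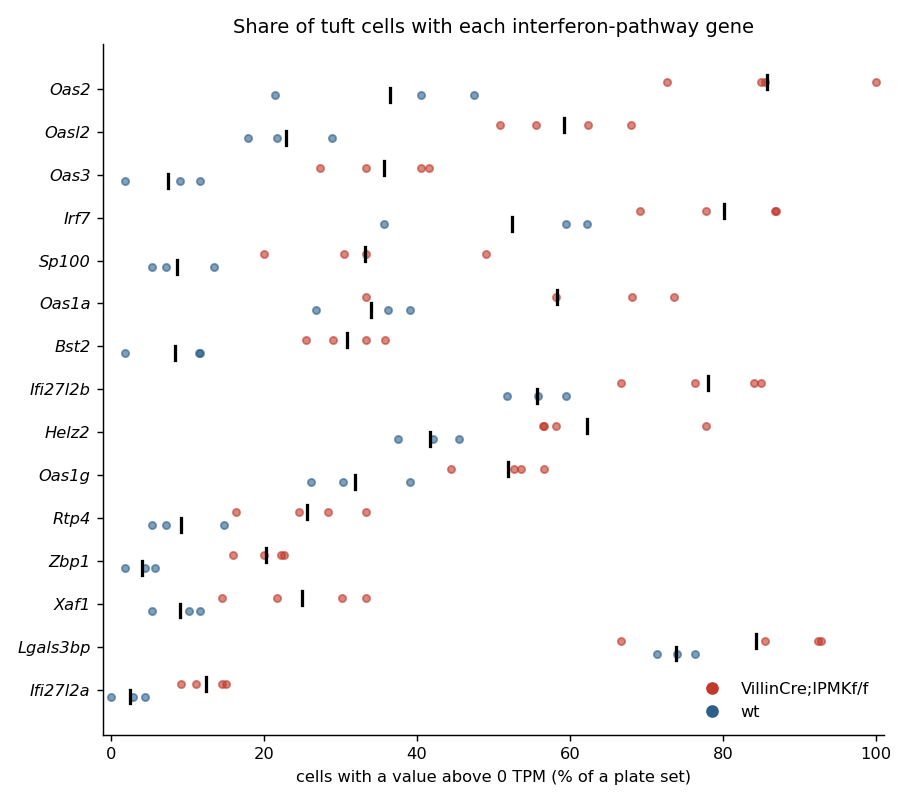
Share of the chosen tuft cells above 0 TPM for interferon-pathway genes, with 1 point per plate set and a bar at the average, VillinCre;IPMKf/f in red above wt in blue for each gene. Oas2 separates most, with 72.7% or more in VillinCre;IPMKf/f sets and 47.4% or less in wt sets.

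The effectors were also counted cell by cell. A median of 11, 11, 10 and 10 of the 42 effectors were above 0 TPM in the knockout-labelled sets, against 6, 6 and 7 in the wt sets. At least 10 were found in 60.2% of knockout-labelled cells (52.8% to 67.3%) and 24.9% of wt cells (19.96% to 30.4%). By plate set these shares were 71.7%, 58%, 52.7% and 55.6% in the knockout-labelled sets and 17.9%, 24.6% and 27.6% in the wt sets, with no overlap. At least 5 were found in 88.7% of knockout-labelled cells and 69.8% of wt cells, so most wt cells also had some. Genes detected per cell were fewer in knockout-labelled sets 4, 5 and 7 than in any wt set, and the part of that gap in these counts was not tested.

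**Figure D3:**
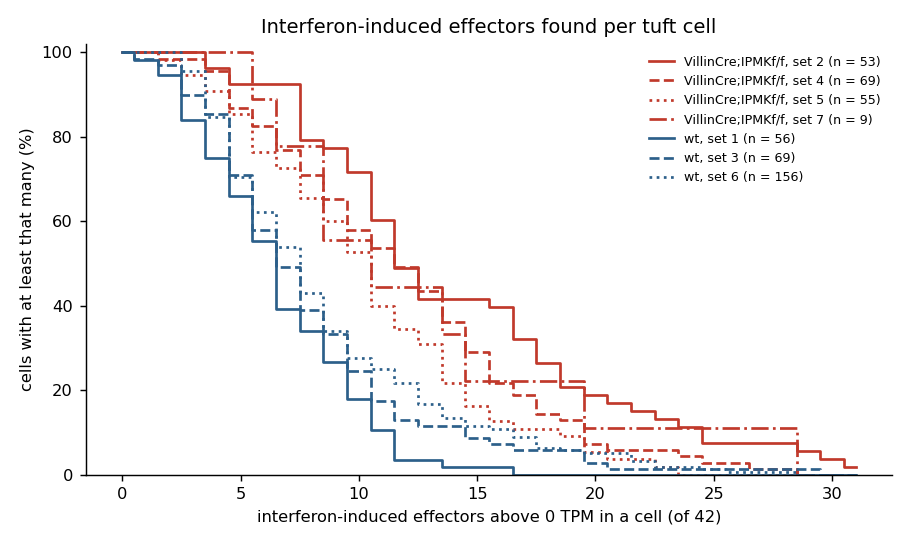
Percentage of the chosen tuft cells with at least a given number of the 42 interferon-induced effectors above 0 TPM, 1 line per plate set (VillinCre;IPMKf/f red, wt blue). At 10 effectors the VillinCre;IPMKf/f sets lie between 52.7% and 71.7% and the wt sets between 17.9% and 27.6%.

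Promoters of the called genes were searched for the interferon-stimulated response element, the site bound by the IRF9-containing complex. The letters searched were GAAA, any 2 bases, then GAAA (TTTC, any 2 bases, TTTC on the other strand), in RefSeq windows (GRCm38.p6) from 250 bases before to 50 bases after each gene start. Both strands were read and overlapping matches counted. Of all 32851 windows 3.44% held a match, or 3.99% of 27025 genes by any window. Of the 42 genes called higher by mean, 31 had a window and 6 of them (19.35%) held a match. Of the 57 called lower by mean, 36 had a window and 0 held one. Of genes called by share, 4 of 17 with a window held a match among those higher and 1 of 50 among those lower. The 6 genes called higher by mean with a match were Oas1a, Oas1g, Bst2, Apol9b, B2m, the MHC class I light chain, and Slc25a22, a mitochondrial carrier gene outside the interferon lists. A window of each is shown, with that of Oas3, called higher by share only. Each window shown holds the match except that of Slc25a22, which holds none. The match of Slc25a22 lies in another of its windows, chr7:141435326-141435625 (minus strand), whose letters are not shown. They are Oas1a at chr5:120907476-120907775 (minus strand), Oas1g at chr5:120887564-120887863 (minus strand), Bst2 at chr8:71537423-71537722 (minus strand), Apol9b at chr15:77728822-77729121 (plus strand), B2m at chr2:122147437-122147736 (plus strand), Slc25a22 at chr7:141434545-141434844 (minus strand) and Oas3 at chr5:120777610-120777909 (minus strand). Each reads 5′ to 3′ on the gene's strand, with the matched letters in capitals.
Oas1a: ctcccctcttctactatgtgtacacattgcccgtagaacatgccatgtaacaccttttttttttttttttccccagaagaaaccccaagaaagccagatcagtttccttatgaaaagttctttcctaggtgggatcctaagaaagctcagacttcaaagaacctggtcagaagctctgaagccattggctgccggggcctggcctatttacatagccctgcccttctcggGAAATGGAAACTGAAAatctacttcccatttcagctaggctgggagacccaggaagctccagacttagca
Oas1g: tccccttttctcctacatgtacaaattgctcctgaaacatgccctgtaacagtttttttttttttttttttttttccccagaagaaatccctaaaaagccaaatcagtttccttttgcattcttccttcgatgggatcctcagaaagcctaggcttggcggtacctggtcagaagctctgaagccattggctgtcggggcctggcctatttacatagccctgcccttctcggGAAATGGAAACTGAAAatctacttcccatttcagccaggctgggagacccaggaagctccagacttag
Bst2: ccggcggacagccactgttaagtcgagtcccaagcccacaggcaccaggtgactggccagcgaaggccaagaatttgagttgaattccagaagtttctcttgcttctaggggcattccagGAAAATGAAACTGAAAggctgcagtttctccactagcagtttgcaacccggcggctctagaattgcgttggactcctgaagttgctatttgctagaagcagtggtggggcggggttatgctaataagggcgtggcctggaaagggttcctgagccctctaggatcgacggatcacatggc
Apol9b: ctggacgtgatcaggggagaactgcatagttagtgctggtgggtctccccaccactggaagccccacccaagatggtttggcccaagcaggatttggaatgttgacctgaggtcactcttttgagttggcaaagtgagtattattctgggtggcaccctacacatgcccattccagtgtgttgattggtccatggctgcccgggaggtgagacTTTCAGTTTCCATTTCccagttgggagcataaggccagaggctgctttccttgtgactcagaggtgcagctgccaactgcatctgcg
B2m: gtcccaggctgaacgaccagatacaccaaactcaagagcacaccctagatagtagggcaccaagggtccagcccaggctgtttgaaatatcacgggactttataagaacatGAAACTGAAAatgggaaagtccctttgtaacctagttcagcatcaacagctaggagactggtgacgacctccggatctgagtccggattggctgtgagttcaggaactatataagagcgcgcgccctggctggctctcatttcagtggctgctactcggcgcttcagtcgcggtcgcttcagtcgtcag
Slc25a22: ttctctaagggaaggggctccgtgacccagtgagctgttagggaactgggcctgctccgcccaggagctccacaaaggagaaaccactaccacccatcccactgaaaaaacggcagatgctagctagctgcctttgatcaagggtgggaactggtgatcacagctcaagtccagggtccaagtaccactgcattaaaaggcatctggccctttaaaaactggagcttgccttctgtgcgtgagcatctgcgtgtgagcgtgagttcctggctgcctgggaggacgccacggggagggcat
Oas3: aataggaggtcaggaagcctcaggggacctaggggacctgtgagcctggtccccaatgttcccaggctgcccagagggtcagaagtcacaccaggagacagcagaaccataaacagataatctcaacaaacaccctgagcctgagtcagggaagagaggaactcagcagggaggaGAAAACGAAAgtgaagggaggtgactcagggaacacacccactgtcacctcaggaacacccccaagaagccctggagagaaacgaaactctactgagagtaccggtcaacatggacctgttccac
In Oas1a and Oas1g the capitals are the same run of letters. Bst2 and Apol9b, like these, hold 2 overlapping matches. The windows of Irf7, Oasl2, Sp100, Lgals3bp and Mt1, also called higher by mean, held none. A match describes letters and not a bound site.

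Among antigen presentation genes, B2m averaged 118.2, 110.3, 133.8 and 67.7 TPM in the knockout-labelled sets, against 40.1, 47.8 and 42 TPM in the wt sets. The sets did not overlap, set 7 was the lowest of its genotype, and the log2 difference was 1.25. B2m was above 0 TPM in 71.5% of knockout-labelled cells and 48.8% of wt cells. H2-K1, a classical heavy chain, averaged 155.5 ± 14.7 TPM in knockout-labelled sets and 90.6 ± 17.4 TPM in wt sets. Its difference of 0.79 was 0.49 without the cells high in colonocyte markers. Psmb8, an immunoproteasome subunit, averaged 11.1 ± 4.29 TPM in knockout-labelled sets and 5.44 ± 0.67 TPM in wt sets, and its difference of 0.85 was 0.31 without those cells. H2-D1, at 184.4 ± 34.6 TPM in knockout-labelled sets and 146.9 ± 47.2 TPM in wt sets, overlapped. Of 17 listed genes at 1 TPM or more, 14 had a positive difference, beside 35.6% of all genes. Non-overlapping sets were seen in 7, all higher, beside 1.91% of all genes. Of 9 at 10 TPM or more, 3 were called higher by mean, beside 1.82% of all genes. By share 1 of 17, H2-Q4, was called higher, beside 0.275% of all genes. Heavy chain genes are alike in sequence, and their values are uncertain to that extent. The median of this list was 0.42, and 0.03 without the cells high in colonocyte markers. Without those cells the median of all genes at 10 TPM or more also fell, from -0.19 to -0.38.

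The interferon lists were also read in tuft-labelled cells that had failed a marker threshold and in wells labelled epithelial. In neither group were the shares of all genes positive or without overlap counted, so the counts below have no background. The tuft-labelled cells that had failed a threshold come first. There, 33 effectors reached 1 TPM, with 31 positive and 12 without overlap. Their median log2 difference was 1.02, beside -0.14 for all genes at that level in those cells. Their sums were 247.6 to 372.4 TPM in knockout-labelled sets and 107.6 to 150.97 TPM in wt sets, which did not overlap. Oasl2 averaged 17.3 ± 3.34 TPM in knockout-labelled sets and 2.73 ± 3.50 TPM in wt sets in these cells, and Oas2 averaged 3.12 ± 1.21 TPM in knockout-labelled sets and 0.97 ± 0.84 TPM in wt sets. Both were without overlap, while Irf7, at 78 ± 37.7 TPM in knockout-labelled sets and 32.8 ± 14.1 TPM in wt sets, overlapped there, as did Bst2, Sp100, Zbp1 and B2m. The regulators had a median of 0.44, with 10 of 15 positive and 3 without overlap, and the MHC class I list a median of 0.19, with 12 of 18 positive and 0 without overlap. In 90 wells labelled epithelial the effector median was 0.47, beside -0.17 for all genes at 1 TPM or more. There 21 of 31 effectors were positive and 1 was without overlap. There the sums were 222.5 to 424.5 TPM in knockout-labelled sets and 191.3 to 234.3 TPM in wt sets, which overlapped. The regulators had a median of -0.42 in those wells, with 7 of 15 positive and 0 without overlap, and the MHC class I list a median of 0.45, with 15 of 17 positive and 2 without overlap. Lacking a background, the counts in both groups of cells are a description only. All these wells share plate sets with the chosen cells, and the difference between the cell groups was not tested.

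RNA of other cell types was measured beside the interferon genes. The 26 absorptive colonocyte markers summed to 58.9 to 1144 TPM in knockout-labelled sets and 135.4 to 287.3 TPM in wt sets, with Saa2 and Saa3 at 0 in every cell. Ceacam1, 1 of these markers, was found in 94.6% of the chosen cells. The cells at or above 100 TPM in this sum, 89 of them knockout-labelled, had a median of 3374 genes detected, against 2318 in the other cells. Without them the effector median was 0.63, the difference of Irf7 was 1.60 and that of Oas2 was 2.39. The median of all genes at 10 TPM or more was then -0.38, in place of -0.19. With Ceacam1 left out of the sum, an alternative chosen after seeing the data, 71.3% of cells stayed in and the effector median was 0.88. That of all genes at 10 TPM or more was -0.32. The 17 goblet cell markers summed to 10.7 to 90.2 TPM in knockout-labelled sets and 6.23 to 9.28 TPM in wt sets, with 5 at 0 in every cell. The enteroendocrine markers, 14 of 17 at 0, summed to 35 to 104.3 TPM in knockout-labelled sets and 26.5 to 30.1 TPM in wt sets. Much of this sum was the secretin gene Sct, at 44.2 TPM in knockout-labelled sets and 26.1 TPM in wt sets. Sct was 1 of 2 of these markers at 10 TPM or more and was called higher by mean, beside 1.82% of all genes. The 16 lymphocyte markers, 12 at 0, summed to 0 to 0.64 TPM in knockout-labelled sets and 0.039 to 1.99 TPM in wt sets. The MHC class II genes summed to 0 to 2.44 TPM in knockout-labelled sets and 0 to 3.33 TPM in wt sets, and the macrophage and dendritic markers, 6 of 12 at 0, to 0.63 to 6.80 TPM in knockout-labelled sets and 0.61 to 1.51 TPM in wt sets. The stromal and endothelial markers, 4 of 11 at 0, summed to 0 to 1.17 TPM in knockout-labelled sets and 0.83 to 2.12 TPM in wt sets. How far this RNA accounts for the differences was not tested beyond those values.

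Genes that mark tuft cells overlapped between genotypes in most cases. The median log2 difference of 37 core tuft genes was -0.06, with an SD of 0.26 between sets. Of the 37, 2 had every knockout-labelled set above every wt set and 1 had every one below, beside 1.91% and 4.12% of all genes. Pou2f3 averaged 18.8 ± 2.85 TPM in knockout-labelled sets and 20.8 ± 5.50 TPM in wt sets. Siglecf, which encodes the sorted surface protein, averaged 62.4 ± 28.7 TPM in knockout-labelled sets and 68.4 ± 18.5 TPM in wt sets. Ptprc, which encodes CD45, averaged 9.64 ± 1.39 TPM in knockout-labelled sets and 12.6 ± 5.42 TPM in wt sets. All 3 overlapped, as did Sh2d6 at 422.7 to 1469 TPM in knockout-labelled sets and 535.99 to 989 TPM in wt sets.

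Of the 36 core genes at 10 TPM or more, 1 was called lower by mean, beside 2.47% of all genes, and none higher. Adh1, an alcohol dehydrogenase, averaged 148.4, 206.99, 337.9 and 200.01 TPM in the knockout-labelled sets, against 357.1, 459.6 and 341.1 TPM in the wt sets. The gap was narrow, between knockout-labelled set 5 and wt set 6, and single plates overlapped. Alox5ap, the activating protein that presents substrate for leukotriene synthesis, was the 1 core gene of 39 called lower by share, beside 0.932% of all genes. It was above 0 TPM in 35.5% of knockout-labelled cells (28.6% to 42.8%) and 51.2% of wt cells (45.2% to 57.2%). Its means overlapped, at 14.7 to 66.1 TPM in knockout-labelled sets and 52 to 161.7 TPM in wt sets.

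Enzymes that make tuft cell eicosanoids overlapped. Alox5, the 5-lipoxygenase gene, averaged 84 ± 10.8 TPM in knockout-labelled sets and 84.3 ± 23.1 TPM in wt sets. Ltc4s, leukotriene C4 synthase, averaged 158.7 ± 34.3 TPM in knockout-labelled sets and 154.9 ± 20.2 TPM in wt sets. The prostaglandin enzymes Ptgs1 and Hpgds averaged 44.9 ± 4.93 TPM in knockout-labelled sets and 48.6 ± 12.4 TPM in wt sets for Ptgs1 and 14.2 ± 8.87 TPM in knockout-labelled sets and 11 ± 2.85 TPM in wt sets for Hpgds. Chat, the acetylcholine-making enzyme, averaged 14.3 ± 3.32 TPM in knockout-labelled sets and 17.5 ± 3.99 TPM in wt sets and also overlapped. The cytokine gene Il25 averaged 9.10, 7.40, 13.1 and 48.8 TPM in the knockout-labelled sets, against 6.11, 3.84 and 9.09 TPM in the wt sets. Those ranges overlapped, and the highest value came from the 9 cells of set 7. Il17rb, which encodes a receptor for IL-25, averaged 20.003 ± 1.88 TPM in knockout-labelled sets and 23.4 ± 7.54 TPM in wt sets.

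In the taste-like cascade, the G protein gene Gnat3 averaged 15.2 ± 6.74 TPM in knockout-labelled sets and 17.1 ± 6.73 TPM in wt sets. The succinate receptor gene Sucnr1 averaged 4.78 ± 5.18 TPM in knockout-labelled sets and 2.80 ± 1.70 TPM in wt sets. Both overlapped. Rgs2, a brake on G protein signalling, was called lower, at 11.9 ± 2.02 TPM in knockout-labelled sets and 19.8 ± 3.21 TPM in wt sets, for a log2 difference of -0.69. It was the 1 gene called by mean of 10 taste signalling genes at 10 TPM or more, beside 2.47% of all genes called lower.

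**Figure D4:**
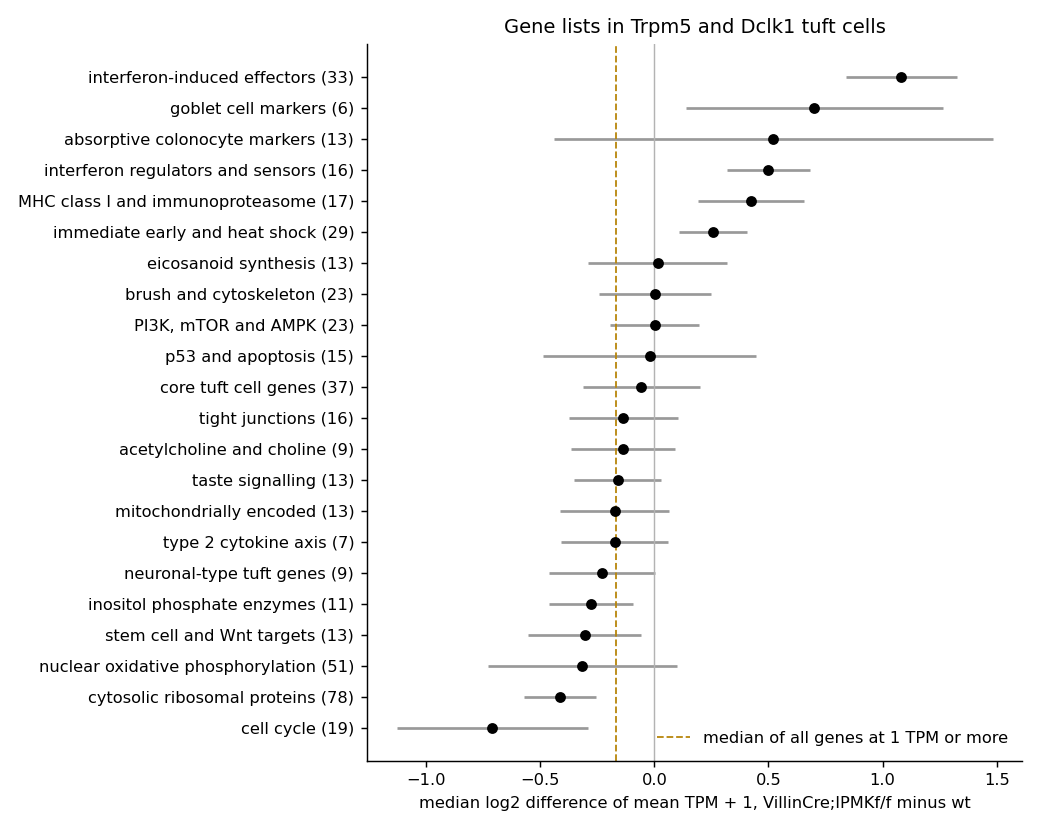
Median log2 difference of mean TPM + 1 between VillinCre;IPMKf/f and wt cells for each gene list with at least 5 members at 1 TPM, with that number in brackets and bars of 1 SD between plate sets. The interferon-induced effectors lie highest at 1.08 and the cell cycle genes lowest at -0.71, and the dashed line marks all genes at -0.17.

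Most genes of cytosolic ribosomal proteins had lower averages in knockout-labelled cells, and a minority of them were called. Of 78 such genes, 75 had a negative difference and 19 had sets that did not overlap, all lower. Most genes had a negative difference, with 35.6% of all genes positive, and 4.12% of all genes had non-overlapping sets that were lower. The mean rule called 12 of the 75 at 10 TPM or more, beside 2.47% of all genes. The median log2 difference was -0.41, with an SD of 0.16, beside -0.17 for all genes. Genes detected per cell were lower in the same cells. Among cells with at least 2000 genes, where that gap was -27.92 genes, the list median was -0.21. The median of all genes at 10 TPM or more was -0.03 in those cells and -0.19 in all chosen cells. How far detection accounts for the ribosomal difference was not tested.

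Rps18 averaged 157.05, 141.9, 162.1 and 70.8 TPM in the knockout-labelled sets, against 218.2, 228.4 and 195.4 TPM in the wt sets. Its sets did not overlap, and the lowest value was that of set 7. Rpl29 averaged 116.6 ± 30.6 TPM in knockout-labelled sets and 197.7 ± 40.2 TPM in wt sets, and Rpl14 averaged 44.1 ± 5.24 TPM in knockout-labelled sets and 76.6 ± 19.7 TPM in wt sets. Their calls ended with 1 set left out. Without set 7 the log2 difference of Rps18 was -0.47 in place of -0.75 and that of Rpl29 -0.56 in place of -0.78, and without set 1 that of Rpl14 was -0.58 in place of -0.76. Rps6, the substrate of S6 kinase, averaged 48.6, 42.6, 38.7 and 37.9 TPM in the knockout-labelled sets, against 64.1, 76.8 and 50.7 TPM in the wt sets. It did not overlap but stayed outside the rule at a log2 difference of -0.58. Rpl22 gave the largest difference of the list, -2.64, of which set 7 held a part: 0 of its 9 cells had Rpl22, which allows a share of up to 33.3%. Without that set the difference was -1.18. Many of these genes have processed pseudogenes, between which reads may be split.

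**Figure D5:**
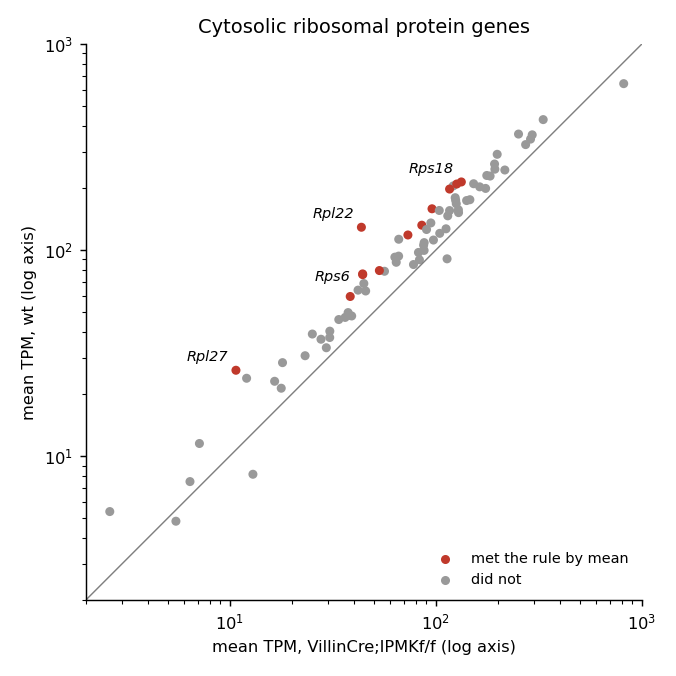
Mean TPM of the 78 cytosolic ribosomal protein genes in VillinCre;IPMKf/f and wt cells, averaged over plate sets, on log axes with the line of equal values, genes called lower by mean in red. By the averaged log2 difference, 75 of 78 are lower in VillinCre;IPMKf/f cells.

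Outside the interferon lists, Mt1, a metallothionein that binds zinc and copper, averaged 44.4, 54.7, 20.3 and 21.8 TPM in the knockout-labelled sets, against 6.85, 5.95 and 7.34 TPM in the wt sets. No plate overlapped. Mt1 was above 0 TPM in 30.6% of knockout-labelled cells (24.1% to 37.8%) and 6.76% of wt cells (4.12% to 10.4%). Slc25a22, which encodes a glutamate carrier, averaged 17.1 ± 6.28 TPM in knockout-labelled sets and 2.96 ± 1.64 TPM in wt sets. It was found in 18.3% of knockout-labelled cells and 11.7% of wt cells, and its difference of 2.23 was 0.46 when log2 values were averaged over cells. Apol9b, an apolipoprotein L family member with near copies, averaged 13.5 ± 9.99 TPM in knockout-labelled sets and 3.01 ± 1.48 TPM in wt sets.

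Of 29 immediate early and heat shock genes at 1 TPM or more, 15 had a positive difference and 14 a negative one, where 35.6% of all genes were positive. Sets did not overlap in 3 that were higher and 1 that was lower, beside 1.91% and 4.12% of all genes. The list median was 0.26, and -0.25 without the highest cell of each set and gene. In that setting the median of all genes at 10 TPM or more was -0.46. Of the 15 listed genes at 10 TPM or more, 3 were called higher by mean, beside 1.82% of all genes. They were Dusp1, a MAP kinase phosphatase, the AP-1 subunit Jun, and Btg2, an antiproliferative factor. Jun averaged 24.2, 28.8, 22.3 and 72.4 TPM in the knockout-labelled sets, against 17.7, 12.2 and 13.9 TPM in the wt sets. Set 7 was far above the rest, and the difference of 1.13 was 0.75 without it. Dusp1 averaged 9.25, 8.66, 13 and 34.6 TPM in the knockout-labelled sets, against 3.31, 3.73 and 4.46 TPM in the wt sets, again with set 7 highest, and its difference of 1.63 was 1.21 without it. Btg2 averaged 11.5 ± 2.02 TPM in knockout-labelled sets and 5.76 ± 0.997 TPM in wt sets. Fos overlapped, at 42.1 ± 30.9 TPM in knockout-labelled sets and 14.8 ± 1.92 TPM in wt sets.

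Several of the largest negative differences by mean came with few cells. Tmem39a averaged 1.65 ± 1.21 TPM in knockout-labelled sets and 17.2 ± 15.6 TPM in wt sets, and 1 wt cell held 73.2% of its wt total. Hist1h2ap, a histone H2A gene with near-identical copies, averaged 7.80 ± 7.64 TPM in knockout-labelled sets and 54.7 ± 22 TPM in wt sets, with 38.5% of the wt total in 1 cell. Its difference of -3.30 was -0.26 without the cells high in colonocyte markers. For Dtnb, dystrobrevin beta, 1 wt cell held 37.002% of the total, and the gene was also called by share, at 23.7% of knockout-labelled cells and 34.9% of wt cells. Chm, a Rab escort protein, had a difference of -3.20 by mean and -0.23 when log2 values were averaged over cells. Epb4.1l4aos was found in 2.69% of knockout-labelled cells and 6.76% of wt cells, and its difference of -2.80 was -1.75 without set 7. Among genes called lower and found in more cells, Ciapin1 averaged 13.4 ± 6.37 TPM in knockout-labelled sets and 27 ± 2.42 TPM in wt sets, and Pomp, the proteasome maturation protein, averaged 12 ± 3.67 TPM in knockout-labelled sets and 27.4 ± 8.56 TPM in wt sets. The difference of Pomp, -1.14, was -0.40 without the cells high in colonocyte markers.

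By share, Ano10, of the anoctamin family, had the largest negative difference, -30.4 points. It was above 0 TPM in 44.6% of knockout-labelled cells (37.3% to 52.1%) and 67.6% of wt cells (61.8% to 73.1%). By plate set it was found in 50.9%, 40.6%, 49.1% and 11.1% of cells in the knockout-labelled sets and 67.9%, 71% and 66% in the wt sets. Set 7 was the lowest, and no set overlapped. Genes also called lower by share were Chmp4c of the ESCRT machinery, the alpha-catenin gene Ctnna1 and the oligosaccharyltransferase subunit gene Dad1. Without set 7 the rule called 33 genes lower in place of 78.

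Few inositol phosphate enzymes and growth signalling genes reached the level of the mean rule. Of 11 listed inositol phosphate enzymes at 1 TPM or more, 2 reached 10 TPM, and neither was called. Of 13 compared by share, where 0.932% of all genes were called lower, Ip6k1, an inositol hexakisphosphate kinase, was called lower by share, at 28.5% of knockout-labelled cells and 44.1% of wt cells. Its means overlapped, at 3.86 ± 1.63 TPM in knockout-labelled sets and 4.68 ± 1.05 TPM in wt sets. The median of the list was -0.28. Of 23 genes of PI3K, mTOR and AMPK signalling at 1 TPM or more, 4 reached 10 TPM and 27 of the list were compared by share. None was called, beside 1.82% of all genes called higher and 2.47% lower by mean and 0.275% and 0.932% by share. Their median was 0.00. Among 19 cell cycle genes 18 had a negative difference, with a median of -0.71, where 35.6% of all genes had a positive one. Non-overlapping sets, lower, were seen in 1 of the 19, beside 4.12% of all genes. Of the 19 genes 3 reached 10 TPM, and none was called. The median of the cell cycle list was -0.05 with Trpm5 at 100 TPM or more and Dclk1 at 200 TPM or more. Cdk6, a G1 kinase, averaged 2.54 ± 2.36 TPM in knockout-labelled sets and 11.7 ± 5.27 TPM in wt sets, and its sets overlapped.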

How the data were processed

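The authors deposited TPM per gene and well for 46517 mouse genes and 92 spike-in entries. Bowtie2 2.4.2, RSEM 1.3.3 and mm10 are listed in the submitters' processing notes; settings, annotation release, strand use and depth were not stated in any source used. RSEM shares reads among similar transcripts. The deposited columns of 1 near-empty plate of set 7 hold at most 6 genes above 0 and were treated as a score, used only to count detected genes. Well titles gave plate sets, and labels gave genotype and cell type.

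The chosen cells numbered 467 of 1203 wells: 186 VillinCre;IPMKf/f and 281 wt cells, 156 of the wt cells in set 6. There were 299 other tuft-labelled cells with enough genes, and 239 of these failed both thresholds. Cells at 100 TPM or more of colonocyte markers numbered 191, leaving 276, or 333 with Ceacam1 left out of the sum.

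Mean TPM per plate set was taken over its cells, and log2(mean TPM + 1) was then averaged with equal weight per set. All differences are VillinCre;IPMKf/f minus wt, and they understate differences of genes at low levels. Named genes are Ipmk, Trpm5, Dclk1, the 12 largest each way by mean and 8 by share, called list members, up to 4 other list members by size and 20 fixed genes. Gm, Rik, clone, pseudogene and mitochondrial names were left out. Id1, Id3, Irf9, Cdhr5, Avil, Ceacam1, Saa2, Saa3 and mt-Co2 fall outside this rule and were named after their values were seen. Some genes that meet the rule are not reported here. The cells, the 29 lists and the rules were chosen with earlier results of these data known. Doublets were not searched for, and no 2 chosen cells held identical values. The procedure was run on simulated cells with planted changes and no difference between plate sets. That run cannot show how often plate sets alone would give a call. Coordinates are GENCODE M21 (GRCm38), which matched 46005 IDs. Python 3.11.15, numpy 2.4.6, pandas 2.3.3, scipy 1.17.1 and matplotlib 3.10.9 were used.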

Additional observations from a re-analysis of the deposited data

Results flagged for a closer look

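For 12 of the 99 values searched (12.1%), 1 of the 4 VillinCre;IPMKf/f plate sets lay far from its nearest neighbour relative to the range of the sets. The cutoff corresponds to about 1 in 20 groups only if all 4 sets spread alike and the values are independent. Neither holds here, since set 7 averages over 9 cells and the other sets over 53 to 69. The 12.1% can therefore not be read as an excess over chance. Set 7, which holds 9 cells, was the outlying set in 10 of the 12. It was the highest for Irf7 (265.7 TPM), Jun (72.4 TPM), Dusp1 (34.61 TPM) and Il25 (48.75 TPM), and the lowest for Rpl10a (59.43 TPM) and Dad1 (1.713 TPM). Among summed lists it was the highest for interferon regulators and sensors (392.2 TPM), stem cell and Wnt targets (191.9 TPM) and goblet cell markers (90.15 TPM), and the lowest for acetylcholine and choline genes (42.9 TPM). The others were H2-K1, highest in set 5 at 177.5 TPM, and Oas1g, lowest in set 2 at 16.1 TPM. Without set 7 the log2 difference of Irf7 was 1.97 and that of Jun 0.75. What sets plate set 7 apart was not tested.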

How the results depend on the processing

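The effector median stayed positive and the ribosomal median negative under all 18 alternatives run for them. The effector median was 0.32 and 1.43 with pseudocounts of 10 and 0.1 TPM, 0.49 with log2 values averaged over cells and 0.63 without cells high in colonocyte markers. In the last of these the median of all genes at 10 TPM or more was -0.38, in place of -0.19. The ribosomal median was -0.62 with log2 values averaged, -0.66 without the highest cell of each set and gene, and -0.21 with at least 2000 genes, where the gap in genes detected was -27.92. In the same order, the median of all genes at 10 TPM or more was -0.19, -0.46 and -0.03. Ipmk differed by 0.276 (without set 4) to 1.14 (without set 7) with 1 plate set left out. Calls are given as percentages of the genes compared. By mean, 1.82% higher and 2.47% lower became 1.13% and 1.56% with a pseudocount of 10 TPM, 1.17% and 3.77% with log2 values averaged, 1.21% and 3.31% at 1 TPM or more, 0.586% and 1.77% with no filter, 1.05% and 6.29% without the highest cells, and 0.971% and 5.42% without cells high in colonocyte markers. Rescaling TPM without 18S RNA and mitochondrial genes gave 1.73% and 3.9% of 7161 genes, since more then reached 10 TPM. Of those calls 30.8% were higher, against 42.4%. By mean, lower calls were 4.15% on first plates, 1.55% with cells pooled and 4.76% with Ceacam1 out of the colonocyte sum. By share, 0.275% higher and 0.932% lower became 0.481% and 0.555% on first plates and 0.176% and 2.11% with Ceacam1 out of that sum. With at least 2000 genes 0.65% were higher. Lower were 0.337% with cells pooled, 2.57% without cells high in colonocyte markers and 0.562% when 10 TPM counted as expressed. With each plate set left out in turn, calls by mean ranged from 1.91% (without set 6) to 3.41% (without set 2) higher and 2.83% (without set 7) to 13.7% (without set 6) lower, and calls by share from 0.225% (without set 1) to 0.475% (without set 6) higher and 0.395% (without set 7) to 4.23% (without set 2) lower. Fewer sets overlap less often by construction. The difference of mt-Co2, 1.74, was -0.23 with stricter Trpm5 and Dclk1 thresholds, -3.13 without cells high in colonocyte markers and -0.54 with Ceacam1 out of that sum. Leaving Ceacam1 out was chosen after seeing the data. Other causes were not tested. No paired analysis was possible because no label pairs plate sets and no test was run.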

Other observations

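Id1 and Id3, inhibitors of basic helix-loop-helix transcription factors, were both higher by mean in VillinCre;IPMKf/f cells, and both were picked out after their values were seen. Id3 averaged 32.6, 28.7, 28.4 and 23.4 TPM in the knockout-labelled sets, against 14.7, 11.2 and 11.8 TPM in the wt sets, and no plate overlapped. Id1 averaged 69.4 ± 12.4 TPM in knockout-labelled sets and 32.7 ± 2.75 TPM in wt sets. In the other tuft-labelled cells Id3 averaged 40.5 ± 12.2 TPM in knockout-labelled sets and 41.4 ± 16.1 TPM in wt sets, and Mt1 averaged 38.3 ± 30.8 TPM in knockout-labelled sets and 40.2 ± 12.5 TPM in wt sets, so the sets of both genes overlapped there.

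Irf7, Sct, which encodes secretin, and Slc25a22 lie within 175.2 kb on chromosome 7. All 3 were called higher by mean, beside 1.82% of all genes. The stretch was drawn from Irf7 to Slc25a22, so the calls of its end genes were fixed by that choice. Of 14 genes in that stretch, 10 reached 1 TPM, and 5 of the 10 had a positive difference, beside 35.6% of all genes. Sct, also the called enteroendocrine marker above, averaged 44.2 ± 10.8 TPM in knockout-labelled sets and 26.1 ± 0.48 TPM in wt sets. Its difference of 0.70 was 0.41 without cells high in colonocyte markers, 0.55 with Ceacam1 out of that sum and 0.56 without set 4, each under the 1.5-fold of the rule. In the other tuft-labelled cells the differences were -1.63 for Sct and -0.55 for Slc25a22, with overlapping sets. Cdhr5, which lies between Irf7 and Sct, averaged 156.4 ± 28.8 TPM in knockout-labelled sets and 153.5 ± 30.03 TPM in wt sets. This stretch was picked out after the values were seen.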
